A study of Rattus norvegicus with 20 samples.

Results

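The 36 genes described here carry out cholesterol synthesis, uptake, export and turnover. They were taken from the deposited table of read counts as the rows whose symbol is on a fixed list of pathway members. All 36 were present among 32883 rows, and all 36 were among the 15272 genes that passed the filter on low counts. They were ordered by role: 5 sensors and switches of the pathway, 9 genes of the mevalonate arm, 11 genes of the sterol arm, and 11 genes of transport, storage, turnover and sterol sensing by nuclear receptors.

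Cholesterol in the brain is made locally, because the blood-brain barrier keeps plasma lipoproteins out. Synthesis starts from acetyl-CoA, passes through mevalonate and isoprenoids to squalene, and ends with a series of sterol conversions. When membrane sterol is scarce, Scap escorts the transcription factor Srebf2 out of the endoplasmic reticulum, and its cleaved form switches on the synthetic genes; when sterol is plentiful, Insig1 and Insig2 hold the complex back. Oxysterols activate the liver X receptors Nr1h2 and Nr1h3, which switch on the exporters Abca1 and Abcg1. Cholesterol leaves the brain mainly after the neuronal enzyme Cyp46a1 has hydroxylated it. The first weeks after birth are a period of high synthesis in rodent brain, when neurites, synapses and myelin are laid down.

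The tissue was hippocampus of Gunn rat pups killed on postnatal day 6, and polyA RNA was sequenced from 1 hippocampal lobe of each of 20 pups, 5 in each of 4 groups. Gunn rats carry an inherited defect of the liver enzyme that conjugates bilirubin. Heterozygous pups (Nj) are not jaundiced, and homozygous pups (jj) are jaundiced. Within each genotype, pups were either untreated or received intermittent LED phototherapy that started on day 4 and alternated 3 h of light with 3 h without, giving 12 h of light by day 6. All groups share the Gunn strain and the age, and even the Nj controls carry 1 defective copy. The labels do not give litter, sex or bilirubin. The p-values set differences between groups against the spread between these pups, and whether pups of a group share a litter is not known. Pups are named here by group and by a number given in the order of the sample list, which pairs nobody across groups.

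Promoter windows from RefSeq (rat build GRCr8, 250 bases before to 50 bases after each annotated start) were found for 31 of the 36 genes, as 34 windows, since Srebf1 had more than 1 start and so had Apoe. The genes with no entry were Pmvk, Fdft1, Sqle, Stard4 and Abcg1. The windows are printed for 4 genes on which the results below turn: Srebf2 and Dhcr7, which fell with light in Nj pups, Cyp46a1, which rose with light over both genotypes, and Idi1, which was lowest in the library that stood apart. They read 5′ to 3′ on the strand of the gene, and capitals mark CCAAT boxes (CCAAT, read on either strand) and GC boxes (GGGCGG, on either strand). Srebf2 lies at chr7:115543057-115543356 on the plus strand, Dhcr7 at chr1:208444184-208444483 on the plus strand, Cyp46a1 at chr6:133011740-133012039 on the plus strand, and Idi1 at chr17:66547475-66547774 on the minus strand.
Srebf2: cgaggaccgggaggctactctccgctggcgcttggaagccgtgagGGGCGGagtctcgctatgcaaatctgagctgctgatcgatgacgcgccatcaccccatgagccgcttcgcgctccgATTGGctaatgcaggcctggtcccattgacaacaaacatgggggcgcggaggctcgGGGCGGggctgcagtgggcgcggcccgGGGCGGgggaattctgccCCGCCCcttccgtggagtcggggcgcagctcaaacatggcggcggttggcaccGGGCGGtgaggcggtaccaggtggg
Dhcr7: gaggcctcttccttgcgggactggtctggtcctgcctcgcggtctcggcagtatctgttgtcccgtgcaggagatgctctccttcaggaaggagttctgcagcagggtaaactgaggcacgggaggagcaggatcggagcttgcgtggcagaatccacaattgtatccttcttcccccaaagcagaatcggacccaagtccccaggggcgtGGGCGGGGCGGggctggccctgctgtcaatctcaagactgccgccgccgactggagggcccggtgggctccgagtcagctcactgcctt
Cyp46a1: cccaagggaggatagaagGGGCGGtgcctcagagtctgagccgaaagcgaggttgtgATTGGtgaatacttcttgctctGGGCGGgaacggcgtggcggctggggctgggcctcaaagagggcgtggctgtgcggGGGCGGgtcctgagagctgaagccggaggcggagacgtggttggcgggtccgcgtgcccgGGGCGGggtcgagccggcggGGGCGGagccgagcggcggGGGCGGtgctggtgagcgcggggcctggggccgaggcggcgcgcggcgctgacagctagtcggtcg
Idi1: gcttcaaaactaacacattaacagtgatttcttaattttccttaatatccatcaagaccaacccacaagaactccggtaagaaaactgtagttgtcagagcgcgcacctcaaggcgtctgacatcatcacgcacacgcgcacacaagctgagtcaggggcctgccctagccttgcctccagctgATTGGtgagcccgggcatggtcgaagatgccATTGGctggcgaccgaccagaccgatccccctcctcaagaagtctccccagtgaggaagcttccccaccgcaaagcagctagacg
The Srebf2 window held 5 GC boxes and 1 CCAAT box, and that of Cyp46a1 6 GC boxes and 1 CCAAT box. The Dhcr7 window held 2 overlapping GC boxes, and that of Idi1 had 2 CCAAT boxes and no GC box.

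A CCAAT box, the letters bound by the factor NF-Y that works beside SREBP on synthetic genes, stood in the windows of 22 of the 31 genes (71.0%). Counted by window, it stood in 24 of the 34 (70.6%). It stood in 36.6% of 12216 windows of genes that passed the count filter and in 37.5% of all 33469 windows of that length. A GC box stood in 24 of 31 genes (77.4%) and 26 of 34 windows (76.5%), against 59.7% of windows of tested genes and 33.1% of all windows. An E-box (CACGTG, which reads alike on both strands) stood in 4 of 31 genes (12.9%) and 4 of 34 windows (11.8%), against 8.8% and 6.4%. A strict sterol response element core (TCACNCCAC, both strands) stood in none of the 34 windows and in 1.1% of windows of tested genes, which says only that these letters are not in these windows. By role, a CCAAT box stood in 5 of 6 windows of sensors, 7 of 8 of the mevalonate arm, 7 of 9 of the sterol arm and 5 of 11 of transport genes. Apoe windows that overlap share the same CCAAT box and GC boxes, so the counts by window include these more than once. The median GC content was 63.2% in the members' windows and 60.5% in those of tested genes. A match is a description of letters and does not show that a factor binds there.

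Total counts per library ran from 16882652 to 27112749. The hippocampal genes Prox1 (89.4 to 134.8 CPM, the count scaled to a common library total, on library sizes scaled by TMM) and Zbtb20 (49.1 to 99.9 CPM) were present in all libraries. Ttr, which marks choroid plexus, ran from 3.57 to 9662 CPM. It passed 1000 CPM in 7 libraries: pup 3 of untreated Nj, pup 3 of untreated jj, pups 2 and 5 of treated Nj, and pups 2, 4 and 5 of treated jj. Titles of samples carry a prefix that follows the groups (J13, J14 and J15 in untreated Nj, J17 in untreated jj, J18 in both treated groups); the labels do not say what it stands for. Only jj against Nj among treated pups is a comparison within 1 prefix; in the others, prefix and group cannot be told apart.

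Pup 3 of untreated jj stood apart from its group, and not for the cholesterol genes alone. It was the lowest or the highest of its group of 5 for 28 of the 36 genes (77.8%). Over all genes tested this share was 63.6% (lowest for 30.9% and highest for 32.7%). The counts that follow are of the 36 genes. It was lowest for 12, among them Hmgcs1, Idi1, Ggps1, Sqle, Cyp51, Msmo1, Nsdhl, Hsd17b7 and Sc5d. It was highest for 16, among them Srebf1, Srebf2, Scap, Mvk, Mvd, Fdps, Tm7sf2, Dhcr7, Soat1, Nr1h2 and Npc2. The synthetic genes were thus split between both ends of the group in this pup, which also had the highest Ttr of all 20 libraries. Pup 3 of treated jj, at 247 CPM of Ttr, had many of these genes at the other end of its group. Over all genes it was highest for 25.0% and lowest for 23.9%. Of the 36 genes it was highest for 7, and all 7 (Hmgcs1, Idi1, Ggps1, Sqle, Cyp51, Nsdhl and Sc5d) were among the 12 that were lowest in pup 3 of untreated jj (58.3% of these). It was lowest for 14, and 10 of them (71.4%) were among the 16 that were highest in the other pup (62.5% of these), with Srebf1, Srebf2, Scap, Mvk, Mvd, Tm7sf2, Dhcr7, Abcg1, Nr1h2 and Npc2. Other libraries above 1000 CPM of Ttr differed in these genes. Pup 4 of treated jj, at 5390 CPM of Ttr, was the lowest of its group for Hmgcs1, Idi1, Ggps1, Sqle, Cyp51, Nsdhl and Sc5d. Pup 2 of treated Nj, at 3695 CPM, was the highest of its group for Hmgcs1, Idi1, Sqle, Cyp51, Nsdhl and Sc5d. The part of choroid plexus content in these readings was not tested. Where pup 3 of untreated jj turned a direction or moved a value that the text dwells on, the value without it is given too.

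**Figure D1:**
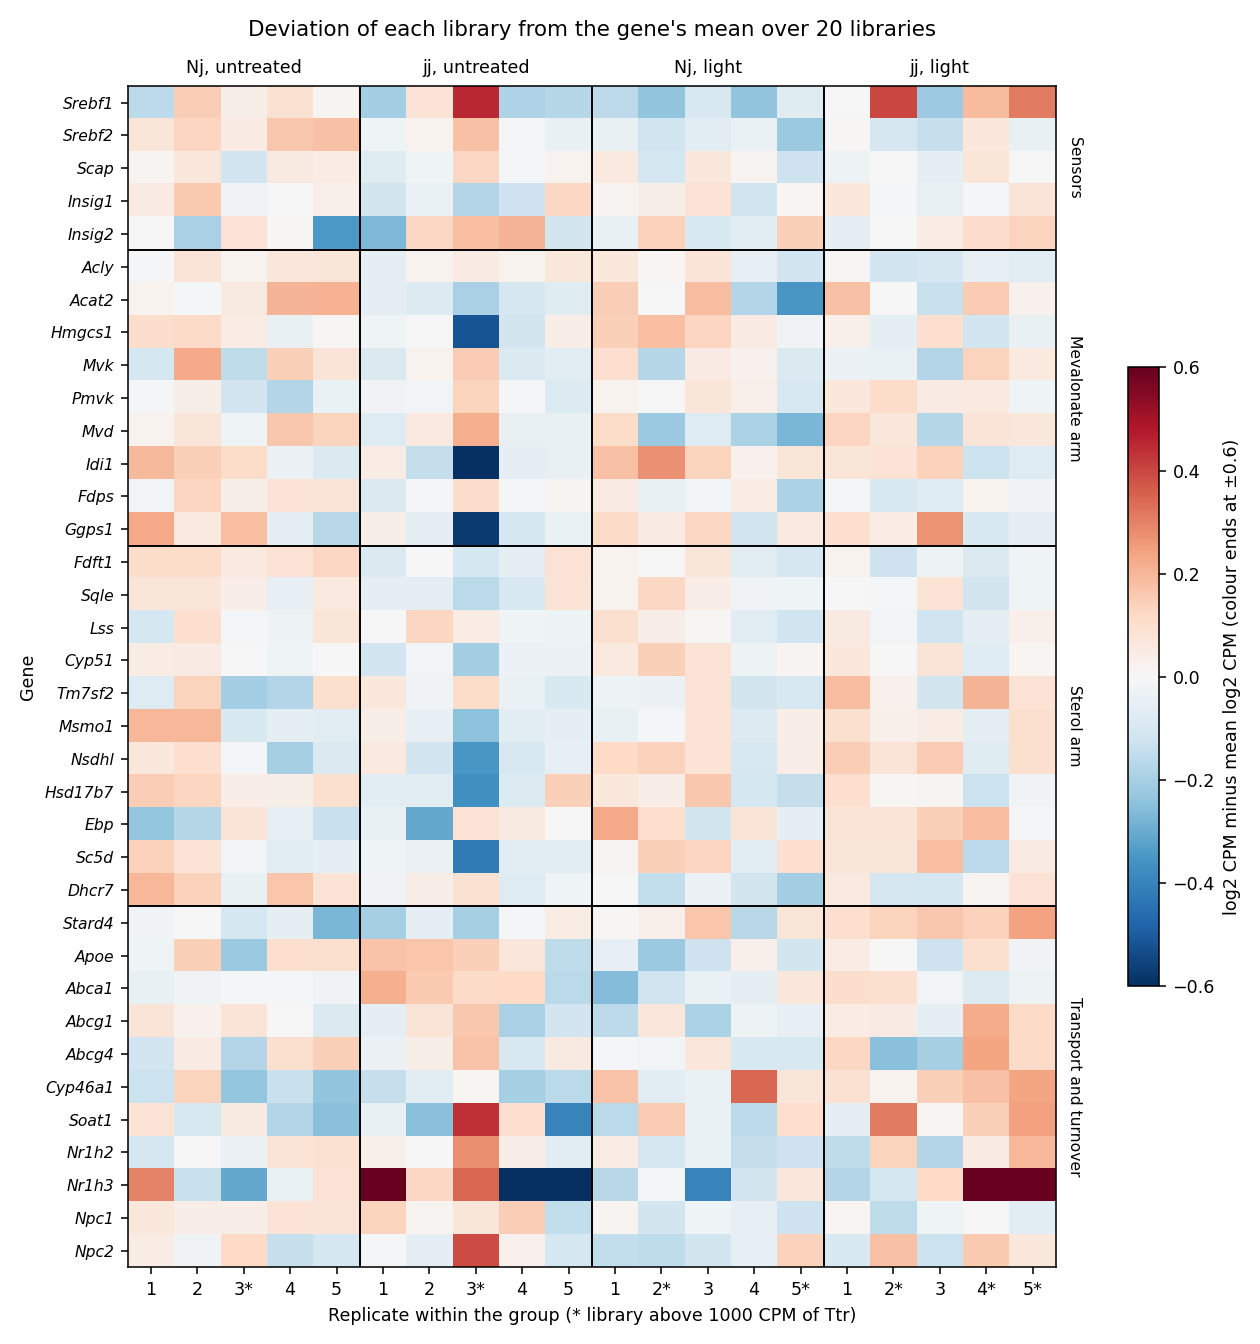
Each cell is log2 CPM of a gene (rows, by role) in a library (columns, 5 per group) minus the gene's mean log2 CPM over all 20 libraries; red is above the mean and blue below, and colours end at 0.6. The column of pup 3 of untreated jj is dark blue for Idi1, Ggps1 and Hmgcs1 and red for Srebf1, Soat1 and Npc2.

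**Figure D2:**
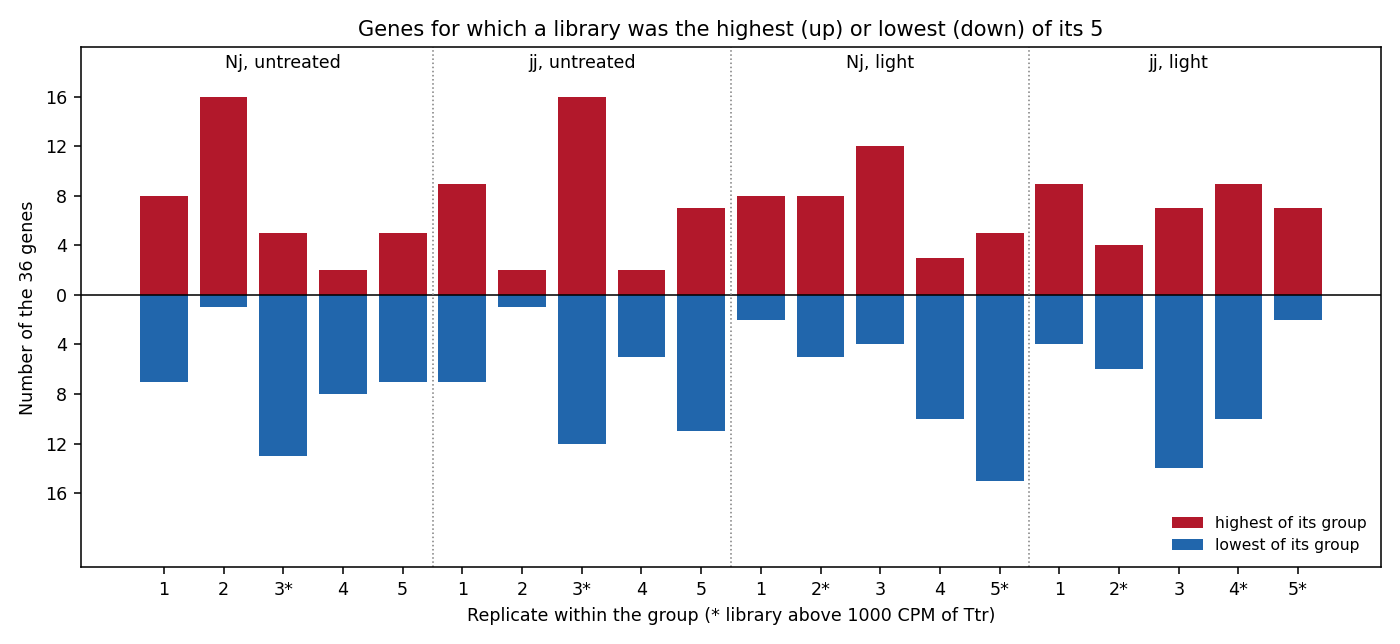
For each library, bars upward count the genes of the 36 for which it was the highest of its 5 and bars downward those for which it was the lowest. Pup 3 of untreated jj reached 16 upward and 12 downward, and pup 5 of treated Nj reached 15 downward.

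Other libraries leaned 1 way. Pup 5 of treated Nj, at 3950.3 CPM of Ttr, was the lowest of its group for 15 genes and the highest for 5, where it was lowest for 23.9% and highest for 19.002% of all genes. Pup 2 of untreated Nj, at 57.3 CPM of Ttr, was the highest for 16 and the lowest for Acat2 alone, where it was highest for 19.3% and lowest for 18.9% of all genes. Within untreated Nj, the 2 pups with prefixes J13 and J14 both lay above all 3 J15 pups for 12 of the 36 genes and below them for 2 (38.9% together), against 23.4% of all genes tested. Msmo1, a sterol demethylase, is an example: it read 172, 172, 141, 144 and 143 CPM in pups 1 to 5, with the first 2 of those from J13 and J14.

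Most members varied little between pups. The coefficient of variation over all 20 libraries was lowest for Acly (4.51%), Scap (4.69%) and Lss (5.02%) and highest for Nr1h3 (26.4%), Srebf1 (15.6%), Soat1 (14.6%) and Idi1 (13.7%). Nr1h3, liver X receptor alpha, was also the member with the fewest reads, with 18 counts in its lowest library and between 0.830 and 2.25 CPM. Idi1 spanned 2.25-fold from its lowest to its highest library and Acly 1.14-fold. The labels and files give no gene lengths, so levels are not compared between genes.

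With light in Nj pups, the transcription factor Srebf2 fell by 13.8% and the reductase Dhcr7 fell by 13.4%. They were the 2 of 36 members (5.56%) past the threshold (adjusted p under 0.05 over all 15272 genes, edgeR), where 4.00% of all genes tested passed. DESeq2 called 2 of 36 as well, against 7.34% of its genes. At an unadjusted p under 0.05 there were 6 (16.7%, against 18.1% of all genes). CPM ranges of the 5 and 5 pups did not overlap for Srebf2 and Npc1, both lower with light, where 6.46% of all genes had ranges that did not overlap. The median log2 change was -0.04 over the 36 genes and 0.00 over all genes, with 24 of 36 and 49.7% of all genes below 0. With the J15 pups as the only untreated Nj ones it was -0.02 over the 36, with 20 below 0. Without untreated Nj pup 2 it was -0.01, also with 20 below 0.

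Light in jj pups gave 0 of 36 calls by edgeR, with 0.164% of all genes called. At an unadjusted p under 0.05 there were 6 (Acly, Cyp51, Nsdhl, Sc5d, Stard4 and Cyp46a1), or 16.7%, against 13.0% of all genes. In that order they had log2 -0.09, 0.10, 0.19, 0.16, 0.24 and 0.24. Without pup 3 of untreated jj they had -0.08, 0.07, 0.14, 0.10, 0.21 and 0.28. Srebf1, Soat1 and Abcg1, outside the 6, had log2 0.14, 0.14 and 0.10. Without that pup they had 0.27 (SE 0.10), 0.28 (SE 0.10) and 0.15 (SE 0.07). DESeq2 called 1 of 35, Stard4, against 2.26% of its genes. Ranges did not overlap for Stard4 and Cyp46a1, both higher with light, against 2.96% of all genes. The median log2 change was 0.06, with 13 of 36 below 0 (8 of 36 without pup 3 of untreated jj, median 0.06), against 50.2% of all genes.

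Averaged over both genotypes, 3 of 36 genes passed with light (8.33%, against 10.1% of all genes): Srebf2 fell, and Stard4 and Cyp46a1 rose. DESeq2 added Dhcr7 and Npc1, both lower, for 5 of 36 (13.9%), against 14.2%. When the 7 Ttr-rich libraries were left out, 0 of the 36 passed in this comparison and 0 in light in Nj pups, in smaller groups. The genes called overall fell too, from 1541 to 424 in this comparison and from 611 to 112 in Nj pups. The 0 of 36 is thus not particular to the cholesterol genes. The shares called with all 20 libraries were near those of all genes in each light comparison. In the average over genotypes, 11 of 36 were under an unadjusted p of 0.05 (30.6%, against 24.6% of all genes). In the sterol arm these were 6 of 11 (54.5%), in mixed directions: Fdft1 and Dhcr7 were lower, and Cyp51, Nsdhl, Ebp and Sc5d higher.

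**Figure D3:**
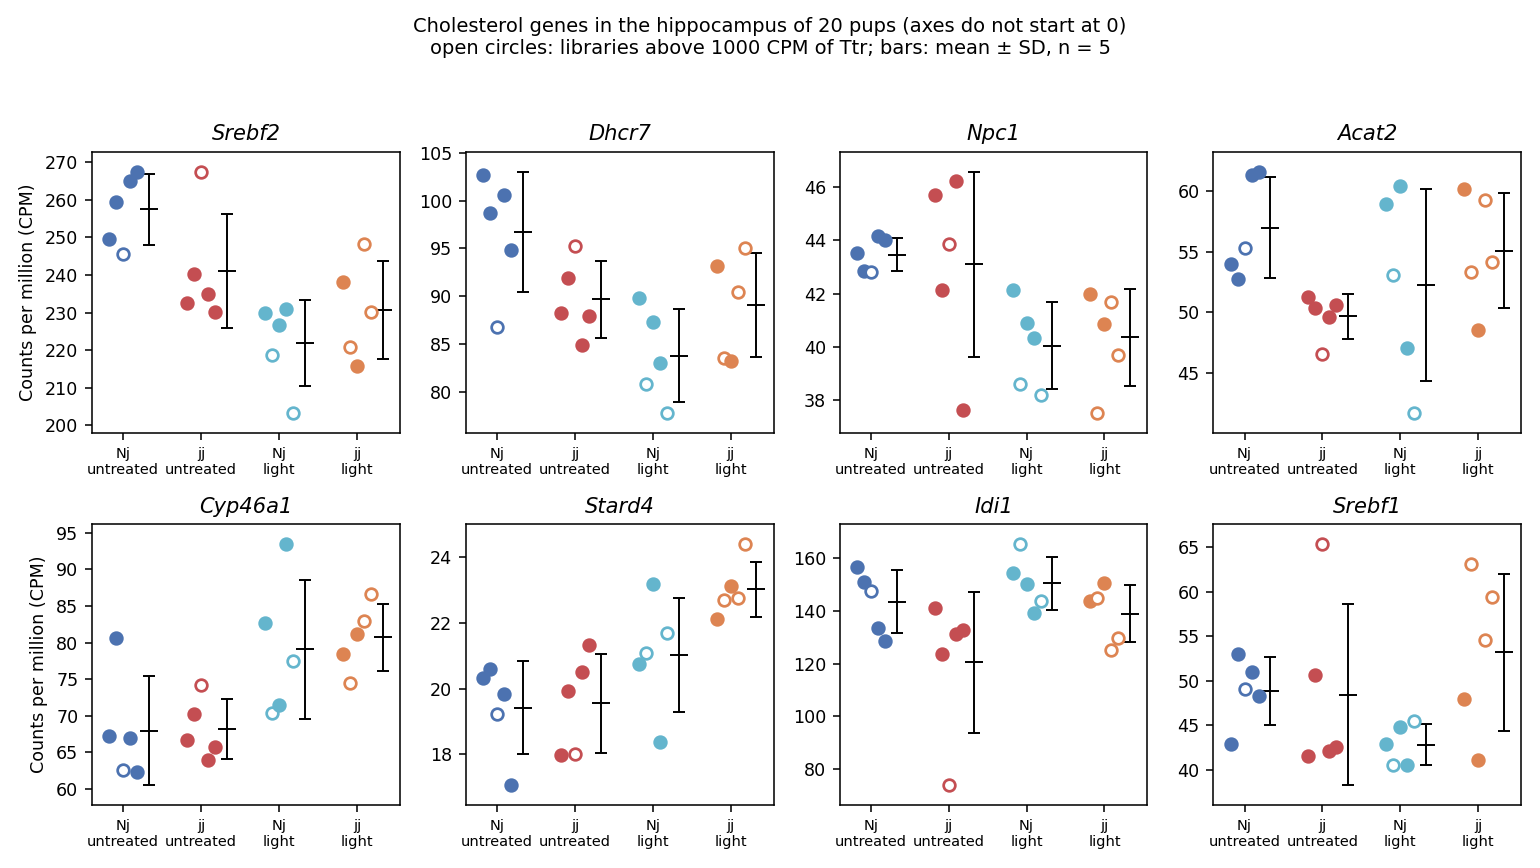
CPM of 8 cholesterol genes in each of 20 pups by group (vertical axes do not start at 0); open circles are libraries above 1000 CPM of Ttr, and bars are mean ± SD of 5. Srebf2 and Npc1 have no overlap between untreated and treated Nj, and Stard4 and Cyp46a1 none between untreated and treated jj.

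Jaundice in untreated pups gave 0 of 36 calls by edgeR and by DESeq2, and 0% and 0.00439% of all genes passed. At an unadjusted p under 0.05 there were 5 of 36, Acat2, Fdft1, Cyp51, Hsd17b7 and Dhcr7, all lower in jj pups (13.9%, against 6.36% of all genes). In that order they had log2 -0.20, -0.13, -0.09, -0.17 and -0.11. Without pup 3 of untreated jj they had -0.17, -0.11, -0.06, -0.10 and -0.13. Srebf2, outside the 5, moved from -0.10 to -0.13 (SE 0.04) when that pup was left out. Acat2 alone had ranges that did not overlap (2.78%, against 1.00% of all genes). Genes of both synthetic arms leaned lower in jj pups, with 16 of 20 below 0 both with and without pup 3 of untreated jj. Of 11 transport genes 9 were above 0 with that pup and 3 (Stard4, Apoe and Abca1) without it. Over all 36 the median was -0.03 with 22 below 0, and without that pup it was -0.06 with 28 below 0, where 49.0% of all genes tested were below 0.

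Jaundice in treated pups, the comparison within 1 prefix, gave 0 of 36 calls by edgeR (0% of all genes) and 0 by DESeq2 (0.00878%). Srebf1, Mvd and Abcg1 were under an unadjusted p of 0.05, all higher in jj pups (8.33%, against 6.62%), and 0 members had ranges that did not overlap, against 1.20%. The median was 0.04 with 10 of 36 below 0, against 48.8% of all genes, and all 11 transport genes leaned higher. Libraries rich in Ttr were 3 of 5 in treated jj and 2 of 5 in treated Nj, and without them the median was 0.01 with 14 below 0 and 7 of 11 transport genes above 0. Averaged over both treatments, jj against Nj gave 0 of 36 calls by both tools, as of all genes. At an unadjusted p under 0.05 there were 6 (16.7%, against 11.2%): Hmgcs1, Idi1, Fdft1, Sqle and Cyp51 were lower in jj pups and Abca1 higher. Of the 36 estimates 18 were below 0, with and without pup 3 of untreated jj.

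The interaction, which asks whether light changed a gene differently in the 2 genotypes, gave 0 of 36 calls by edgeR and by DESeq2, as of all genes (0%). Srebf2, Acat2, Mvd and Dhcr7 were under an unadjusted p of 0.05 (11.1%, against 3.41% of all genes), each with the light change higher in jj than in Nj pups. In all, 30 of 36 estimates were above 0 with a median of 0.07, against 51.3% and a median of 0.00 over all genes, and without pup 3 of untreated jj 5 of 36 were below 0 with a median of 0.08. Each of these comparisons draws on groups that another one also uses, so the leanings are not separate evidence.

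**Figure D4:**
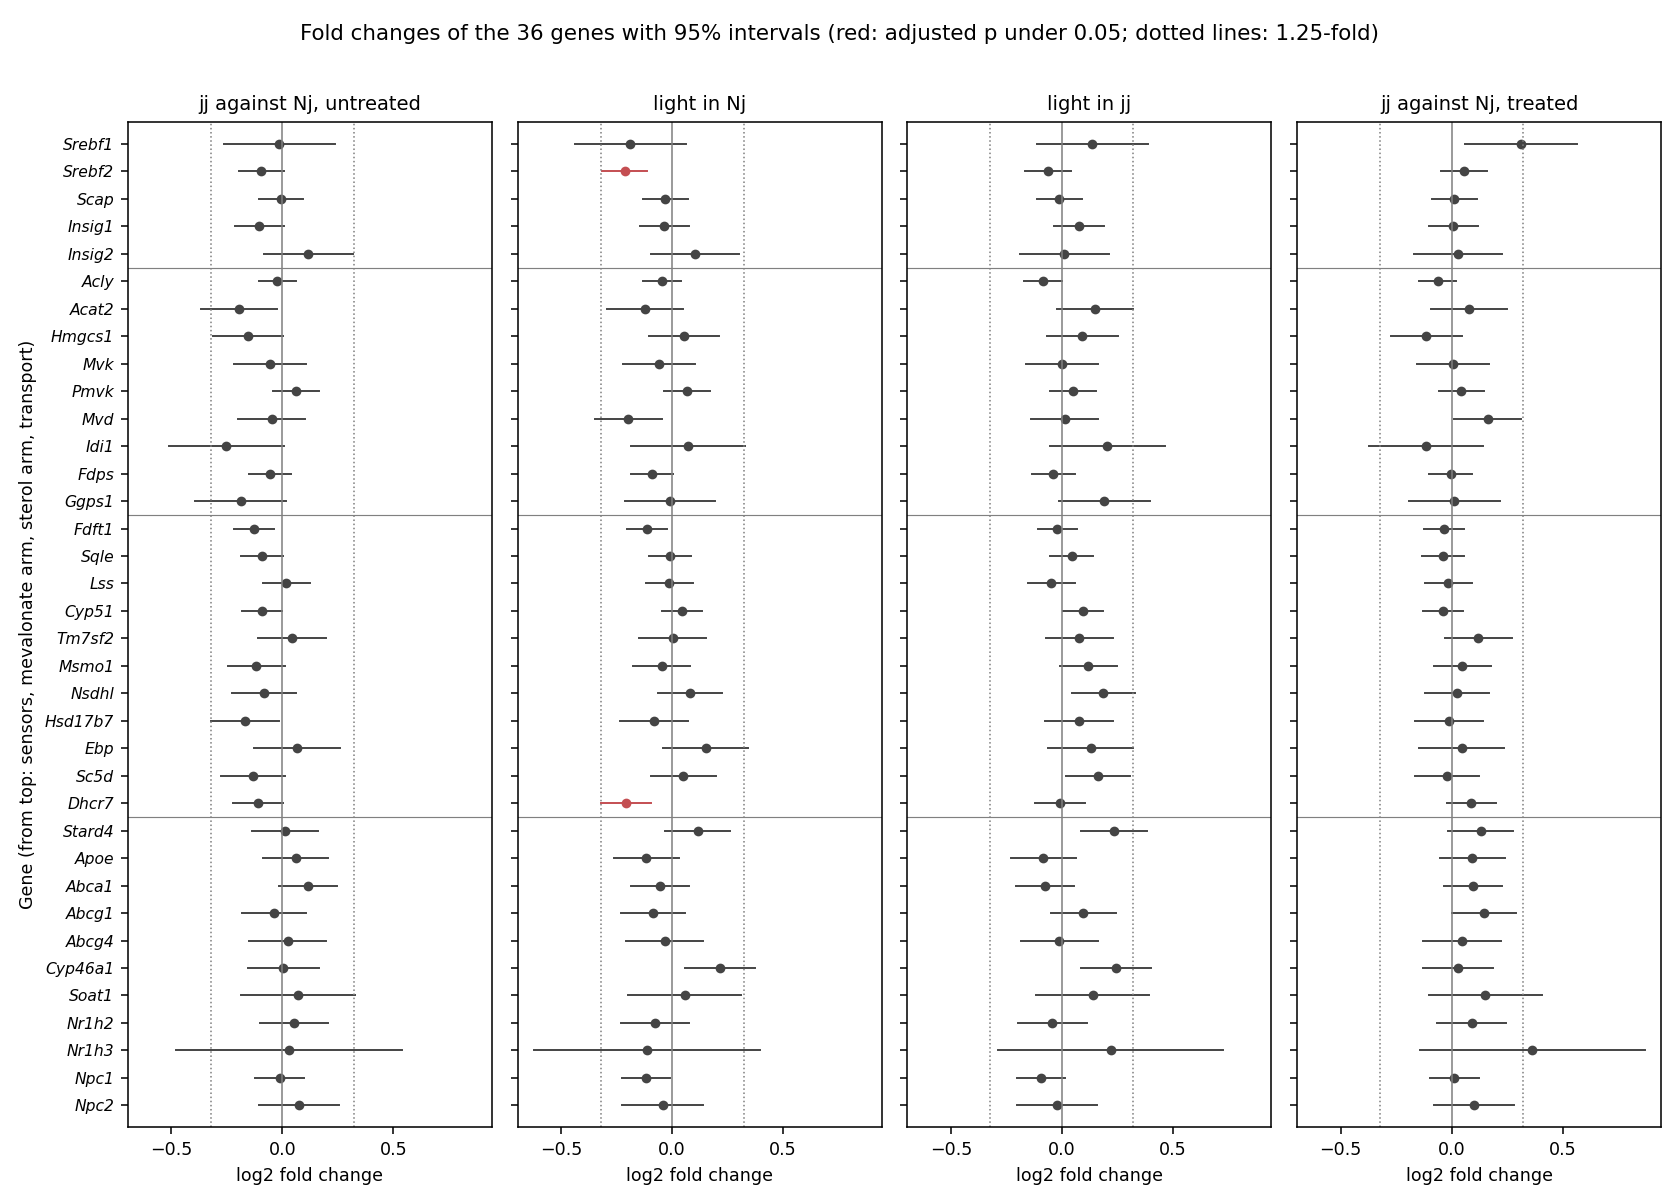
Log2 fold changes of the 36 genes (points) with 95% intervals (lines) in 4 comparisons from the common fit of 20 libraries; dotted lines mark 1.25-fold and red marks adjusted p under 0.05. Red appears for Srebf2 and Dhcr7 with light in Nj pups, and the widest intervals belong to Nr1h3.

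Among the sensors, Srebf2, the transcription factor that drives cholesterol synthesis, passed in 2 comparisons by edgeR. It read 249.6, 259.5, 246, 265 and 267 CPM in untreated Nj pups and 230.0, 219, 227, 231 and 203 CPM in treated Nj pups. Every treated Nj pup was below every untreated one. It fell by 13.8% (257 ± 9.56 to 222 ± 11.5 CPM, SD, n = 5; log2 -0.21, SE 0.05, adjusted p = 0.0172). In jj pups it read 233, 240.3, 267, 235 and 230.1 CPM untreated and 238, 221, 216, 248 and 230.2 CPM treated. The highest of the untreated jj readings was pup 3, and these groups overlapped (log2 -0.06, 95% interval -0.17 to 0.04, adjusted p = 0.611; -0.02 without pup 3). Over both genotypes Srebf2 fell by 9.19% (log2 -0.14, SE 0.03, adjusted p = 0.0120). The test of the difference between genotypes gave log2 0.15 (SE 0.07, adjusted p = 1.00), so the fall was not shown to differ between them. The call in Nj pups was lost without untreated Nj pup 4 (adjusted p = 0.0510) or pup 5 (0.0622), and without the Ttr-rich libraries (log2 -0.18, adjusted p = 0.0567). With the 3 J15 pups as the only untreated Nj ones it was kept (log2 -0.22, adjusted p = 0.0233). In bulk tissue, fewer cells of a type and less RNA per cell cannot be told apart, here and in every result below.

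Srebf1, the relative of Srebf2 that acts mainly on fatty acid synthesis, spread more widely. It read 41.6, 50.7, 65.3, 42.1 and 42.5 CPM in untreated jj pups, with pup 3 highest, and 48.0, 63.1, 41.1, 54.5 and 59.4 CPM in treated jj pups. In the latter group the 3 Ttr-rich libraries (pups 2, 4 and 5) held the 3 highest readings. Nj pups lay closer together, at 48.9 ± 3.82 CPM untreated and 42.9 ± 2.30 CPM treated. Their Ttr-rich libraries were mixed. Treated Nj pup 2 had the lowest reading of all 20 (40.5 CPM) and treated Nj pup 5 the highest of its group (45.5 CPM). Untreated Nj pup 3 was at its group's median (49.0 CPM). Among treated pups, Srebf1 had log2 0.31 for jj against Nj (SE 0.12, adjusted p = 0.724), and log2 0.06 without the Ttr-rich libraries.

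Scap, which escorts the SREBP proteins, varied between 134 and 159 CPM over all pups, and its log2 changes lay between -0.03 and 0.01 in the 4 comparisons of single groups. Insig1, a retention protein that SREBP itself induces, read 103 ± 5.05 and 101 ± 5.19 CPM in Nj pups without and with light, and 95.9 ± 8.06 and 101 ± 3.75 CPM in jj pups. Its groups overlapped throughout, and the lowest adjusted p of the 4 comparisons was 0.555, with light in jj. Insig2, the retention protein that sterols do not induce, lay between 12.1 and 17.7 CPM with log2 changes from 0.01 to 0.12 and no call.

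In the mevalonate arm, 0 of 9 genes passed in any of the 7 comparisons by edgeR or DESeq2, and at most 2 were under an unadjusted p of 0.05 in a comparison. Hmgcs1, the synthase at the head of the arm, read 1339, 1349, 1283, 1207 and 1253 CPM in untreated Nj and 1223, 1249, 871, 1156 and 1279.8 CPM in untreated jj pups. The jj value of pup 3 was the lowest of all 20, and the other 4 overlapped with Nj. The log2 difference was -0.15 (adjusted p = 0.775) with pup 3 and -0.07 without it. Treated pups read 1377, 1413, 1362, 1291 and 1227 CPM in Nj and 1272, 1195, 1336, 1149.6 and 1207 CPM in jj, again with overlap.

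Acat2, the thiolase that joins acetyl-CoA units, was the member whose ranges were apart between untreated groups. It read 54.0, 52.8, 55.3, 61.3 and 61.5 CPM in untreated Nj and 51.3, 50.3, 46.6, 49.6 and 50.6 CPM in untreated jj pups. All 5 jj pups lay below all 5 Nj pups, also with pup 3 set aside, but the test over all genes did not call it (log2 -0.20, SE 0.08, adjusted p = 0.775; -0.17 without pup 3). In treated pups it spread from 41.7 to 60.4 CPM in Nj and from 48.5 to 60.1 CPM in jj, and the groups overlapped.

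Idi1, the isomerase that readies isoprenoid units for condensation, read 141, 124, 73.7, 131 and 133 CPM in untreated jj pups. Pup 3 was below every other pup of the 20. The difference from untreated Nj (144 ± 11.9 CPM) was log2 -0.25 with this pup and -0.12 without it, neither called. Ggps1, which makes the geranylgeranyl group used to anchor small GTPases, read 36.7, 34.5, 23.99, 33.3 and 34.8 CPM in untreated jj pups, with pup 3 again below all others. Its difference was log2 -0.19 with pup 3 and -0.09 without it.

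Mvd, the decarboxylase that makes isopentenyl diphosphate, did not pass the threshold with light in Nj pups. It read 54.7, 56.8, 53.0, 60.3 and 59.3 CPM untreated and 58.3, 46.2, 51.2, 47.3 and 44.7 CPM treated, and 1 treated pup of 5 lay within the untreated range (log2 -0.20, SE 0.07, adjusted p = 0.120). It passed when that pup, treated Nj pup 1, was left out. In jj pups it was 55.0 ± 4.75 CPM untreated and 55.4 ± 4.28 treated (log2 0.01, and 0.07 without untreated jj pup 3). The other members were not called either. Acly, which supplies cytosolic acetyl-CoA, had log2 changes from -0.09 to -0.02 in the 4 comparisons. Fdps, the farnesyl diphosphate synthase, ran from -0.09 to 0.00. The kinases Mvk (-0.06 to 0.01) and Pmvk (0.04 to 0.07) lay in similar ranges.

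In the sterol arm, Dhcr7, a reductase of the final step to cholesterol, fell with light in Nj pups. It read 103, 98.7, 86.7, 101 and 94.8 CPM in untreated and 89.8, 80.8, 87.3, 83.1 and 77.8 CPM in treated Nj pups. The groups overlapped only through untreated pup 3, a Ttr-rich library, which lay below 2 treated pups. Dhcr7 fell by 13.4% (log2 -0.21, SE 0.05, adjusted p = 0.0296). In jj pups it was 89.7 ± 4.03 CPM untreated and 89.1 ± 5.45 CPM treated (SD, n = 5), with log2 -0.01, a 95% interval of -0.12 to 0.10, and 0.02 without untreated jj pup 3. The difference between genotypes was log2 0.20 (SE 0.07, adjusted p = 1.00). The call held in 5 of the 10 fits that left out 1 pup of either group: it was lost without untreated Nj pup 1, 4 or 5 and without treated Nj pup 2 or 5 (adjusted p from 0.0576 to 0.0851). Without the Ttr-rich libraries it was log2 -0.19 (adjusted p = 0.0708), and with J15 as the only untreated Nj prefix log2 -0.16 (adjusted p = 0.112).

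Fdft1, the squalene synthase that commits isoprenoids to sterols, read 197, 197, 189.9, 194 and 199 CPM in untreated Nj pups, a narrow range. Means were lower in the other groups, at 179 ± 9.86 in untreated jj, 181 ± 8.74 in treated Nj and 176 ± 6.95 CPM in treated jj pups. Neither the difference in untreated pups (log2 -0.13, SE 0.04, adjusted p = 0.775; -0.11 without pup 3) nor that with light in Nj (-0.11, SE 0.04, adjusted p = 0.142) passed, and both use the same untreated Nj pups. Sqle, the squalene epoxidase, was at 282 ± 9.80 and 280.4 ± 11.9 CPM in Nj pups without and with light and at 265 ± 16.6 and 273 ± 12.9 CPM in jj pups, with overlap throughout. Lss, the cyclase that makes lanosterol, had log2 changes from -0.05 to 0.02.

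With light in jj pups, 7 of the 8 sterol genes that act after lanosterol were above 0, where 49.8% of all genes were, and 0 were called. The exception was Dhcr7. Nsdhl, a sterol dehydrogenase, had the lowest adjusted p of the 8. It read 79.3, 70.2, 59.7, 71.2 and 73.6 CPM in untreated and 84.4, 80.2, 84.5, 72.4 and 81.3 CPM in treated jj pups (log2 0.19, SE 0.07, adjusted p = 0.230; 0.14 without pup 3). Sc5d, a sterol desaturase, had log2 0.16 and 0.10 without pup 3, and the lanosterol demethylase Cyp51 0.10 and 0.07. Msmo1 had 0.12 and 0.08, and the reductase Hsd17b7 0.08 and 0.02. Each of these 5 values was closer to 0 without that pup. Ebp, the sterol isomerase, and Tm7sf2, a sterol reductase, had log2 0.13 and 0.08 in the same comparison, and without that pup lay farther from 0, at 0.17 and 0.11.

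Among transport and turnover genes, Cyp46a1, the neuronal hydroxylase that starts cholesterol's exit from the brain, rose with light over both genotypes. It read 67.2, 80.6, 62.6, 67.0 and 62.3 CPM in untreated Nj and 82.7, 70.3, 71.4, 93.5 and 77.4 CPM in treated Nj pups. These overlapped through untreated pup 2, which lay above 3 treated pups. It read 66.7, 70.2, 74.2, 63.9 and 65.7 CPM in untreated jj and 78.4, 74.5, 81.1, 82.9 and 86.6 CPM in treated jj pups, with all treated above all untreated. Over both genotypes it rose by 17.3% (log2 0.23, SE 0.05, adjusted p = 0.00790). The 2 separate changes, log2 0.22 in Nj (adjusted p = 0.106) and 0.24 in jj (adjusted p = 0.151), did not pass on their own, and their difference was 0.03 (95% interval -0.20 to 0.25). The jj change was 0.28 without untreated jj pup 3, and the Nj change passed the threshold when untreated Nj pup 2 was left out. Without the Ttr-rich libraries the averaged change was log2 0.25 (adjusted p = 0.0595). With J15 as the only untreated Nj prefix, the change in Nj pups was log2 0.31 and passed (adjusted p = 0.0256).

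Stard4, a cytosolic carrier that moves sterol between membranes, also rose with light over both genotypes. It read 17.98, 19.9, 18.01, 20.5 and 21.3 CPM in untreated jj and 22.1, 22.7, 23.1, 22.8 and 24.4 CPM in treated jj pups, without overlap. In Nj pups it read 20.3, 20.6, 19.2, 19.84 and 17.1 CPM untreated and 20.8, 21.1, 23.2, 18.4 and 21.7 CPM treated, with overlap. The averaged rise was 12.9% (log2 0.18, SE 0.05, adjusted p = 0.0255), and without the Ttr-rich libraries log2 0.14 (adjusted p = 0.277). In jj pups alone it was log2 0.24, not called by edgeR (adjusted p = 0.139) and called by DESeq2 (adjusted p = 0.0486), and 0.21 by edgeR without pup 3 of untreated jj. Each of the 3 averaged calls, of Srebf2, Stard4 and Cyp46a1, was kept when any single library of the 20 was left out.

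Npc1, the late endosomal exporter of cholesterol taken up with lipoproteins, lay close together in untreated Nj pups, at 43.5, 42.8, 42.8, 44.1 and 44.0 CPM. Treated Nj pups read 42.1, 38.6, 40.9, 40.3 and 38.2 CPM, all below. The change was not called (log2 -0.12, SE 0.05, adjusted p = 0.213), nor was the average over genotypes by edgeR (log2 -0.11, adjusted p = 0.0655). Its partner Npc2, which hands cholesterol to Npc1, had log2 -0.04 in Nj and -0.02 in jj pups with light, and the jj value was 0.08 without pup 3. Its highest reading was 64.1 CPM, in pup 3 of untreated jj.

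Apoe, the lipoprotein that carries cholesterol from astrocytes to neurons, read 1190.4 ± 117 and 1098 ± 72.03 CPM in Nj pups without and with light, and 1241 ± 111 and 1171 ± 66.1 CPM in jj pups, with overlap between all groups. Abca1, which loads cholesterol onto Apoe, read 66.6, 67.8, 68.2, 68.2 and 67.6 CPM in untreated Nj and 79.8, 76.7, 74.3, 74.6 and 61.3 CPM in untreated jj pups. In the jj group 4 pups lay above all Nj pups and pup 5 below them (log2 0.12, SE 0.06, adjusted p = 0.776; 0.11 without pup 3). Abcg1, a partner exporter, had log2 0.15 for jj against Nj in treated pups (adjusted p = 0.724), and Abcg4, its close relative in neurons, 0.05. Soat1, which esterifies cholesterol for storage, lay between 12.5 and 22.4 CPM, with its highest value in pup 3 of untreated jj. The liver X receptors Nr1h2 and Nr1h3 had log2 changes from -0.08 to 0.09 and from -0.11 to 0.36; the interval of the last was -0.14 to 0.87.

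Intervals show how large a change could have gone unseen. With light in Nj pups the 95% interval lay within 1.25-fold in either direction for 30 of 36 genes and within 1.5-fold for 35, all but Nr1h3. The counts were 31 and 36 for jj against Nj in untreated pups, 27 and 35 for light in jj pups, and 32 and 35 for jj against Nj in treated pups. For the interaction they were 23 and 34, with Srebf1 and Nr1h3 outside 1.5-fold.

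Further genes of the pathway were read from 2 lists. Of 48 tested genes of sterol binding, lipoprotein receptors and accessory enzymes, 0 passed with light in Nj pups by edgeR, 12 (25.0%, against 18.1%) were under an unadjusted p of 0.05, and DESeq2 called 3 of 47 (6.38%, against 7.34%). Averaged over genotypes 4 passed (8.33%, against 10.1% of all genes): Osbpl1a, an oxysterol-binding protein (log2 0.17, adjusted p = 0.00442), and Nceh1, which frees stored cholesterol from its esters (0.20, 0.00874), rose. Lrp1, a receptor for Apoe particles, fell from 839 ± 94.8 to 720.4 ± 34.0 CPM in Nj and from 847 ± 65.5 to 756 ± 33.2 CPM in jj pups (averaged log2 -0.19, adjusted p = 0.0101). Por, which passes electrons to the demethylase and the epoxidase, also fell (-0.11, 0.0495). Of 39 tested fatty acid genes, 3 passed with light in Nj pups (7.69%, against 4.00% of all genes). Fasn, the fatty acid synthase, fell from 1151 ± 88.1 to 913 ± 80.3 CPM (SD, n = 5; log2 -0.33, adjusted p = 0.00649). The acyl-CoA ligase Acsl6 rose (log2 0.24, adjusted p = 0.00767), as did the fatty acid carrier Fabp3 (0.36, 0.0220). Averaged over genotypes 7 passed (17.9%, against 10.1% of all genes), 4 higher and 3 lower, with Acsl6, Fasn, Fabp3 and the citrate carrier Slc25a1 (log2 -0.17, adjusted p = 0.00846) at the lowest p. In the other 5 comparisons 0 genes of either list passed by edgeR. Under an unadjusted p of 0.05 were 0 to 6 genes of the first list and 0 to 10 of the second. The 6 (12.5%, against 11.2% of all genes) were for jj against Nj averaged over treatments. The 10 (25.6%, against 13.0%) were for light in jj pups. There DESeq2 called 1 fatty acid gene (2.78%, against 2.26% of its genes), and otherwise it called 0 in these 5 comparisons. The medians of both lists lay between 0.00 and 0.04 on the log2 scale over the 7 comparisons.

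Markers of several cell types moved with light beside the cholesterol genes. The counts below stand against 4.00% of all genes called with light in Nj pups and 10.1% over both genotypes. In Nj pups, immature neuron markers were lower for 10 of 11, with 4 called, and their summed level ran 11441 to 12549.6 CPM untreated and 9739 to 11333 CPM treated. Proliferation markers were lower for 10 of 12, with 5 called (301 to 329.7 and 276 to 298 CPM). Mature neuron markers were higher for 10 of 12, with 1 called (7545 to 8360.2 and 8449.5 to 8775 CPM), and 7 were called over both genotypes. Microglia markers were higher for 13 of 14, with 3 called (157 to 171 and 167 to 195 CPM), and in jj pups for 8 of 14, with 0 called. Of 15 astrocyte markers 3 rose and 1 fell in Nj pups (3434 to 4169 and 4000.0 to 4225 CPM). Of 14 oligodendrocyte markers, 11 leaned higher over both genotypes, with 2 called. Their summed level was nevertheless lower on average with light, within a wide spread. It was 1207 ± 408 and 1099 ± 410 CPM in Nj pups without and with light, and 1652 ± 569 and 1007 ± 337 CPM in jj pups. Meningeal markers were lower with light for 9 of 11 in Nj and 10 of 11 in jj pups (498 to 985 and 509 to 1022 CPM in Nj, 478 to 1273 and 516 to 1095 CPM in jj). Over both genotypes edgeR called 1 of them and DESeq2 called 3 (27.3%, against 14.2% of its genes). Of 11 endothelial markers 2 were called over both genotypes, both lower, while 6 of the 11 estimates were above 0. Erythroid genes were lower with light for 7 of 7 in Nj pups and 4 of 7 in jj pups. In Nj pups 1 of them (14.3%, against 18.1% of all genes) was under an unadjusted p of 0.05, and 0 were called by edgeR or DESeq2. All 12 choroid plexus markers leaned higher with light in either genotype, with 0 called by edgeR or DESeq2 and 0 under an unadjusted p of 0.05 (46.7 to 4760.4 and 60.3 to 4578 CPM in Nj, 47.8 to 10917 and 108 to 8773 CPM in jj pups). In untreated pups, choroid plexus markers were higher in jj than Nj for 12 of 12, meningeal markers for 10 of 11 and microglia markers for 12 of 14, and hemoglobin and other erythroid genes were lower for 7 of 7. None of these was called by edgeR or DESeq2, and 7 of the 14 microglia markers and 0 of the others were under an unadjusted p of 0.05. None of these markers was at 0 in any library. Their part in the changes of Srebf2, Dhcr7, Cyp46a1 and Stard4 was not tested, beyond the values without the Ttr-rich libraries given above.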

How the data were processed

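RNA of 20 hippocampi was compared, 5 pups in each of 4 groups taken from the labels. The authors deposited 1 table of raw counts per gene. Per the submitters' processing notes, FastQC, TopHat2 2.0.13, Subread and edgeR were used and the build named is mm10, a mouse build, while the table's identifiers are rat Ensembl genes. The rat annotation and the strand setting are not stated in the labels, so overlapping and antisense genes could not be told apart. All columns matched a sample.

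The deposited counts were tested with edgeR 4.0.16 in R 4.3.3 (filterByExpr by group, TMM, 1 mean per group over all 20 libraries, robust quasi-likelihood F-test, two-sided) with Benjamini-Hochberg adjustment over 15272 genes and a threshold of 0.05. The 7 contrasts were taken from the fit. CPM used TMM-scaled library sizes, and intervals used 16 residual degrees of freedom. The fit was tested on simulated data. Total counts of 16882652 to 27112749 per library limit precision mainly for Nr1h3. Alternatives were DESeq2 1.42.0, its size factors in edgeR, no count filter, the compared groups alone, no Ttr-rich libraries, J15 alone for untreated Nj, and leaving out each library. Values per pup are given for members that were called, that had ranges without overlap, or that head a pathway step; a few others were added after their values were seen. Members and lists were chosen with earlier results of these data known. Some genes of the pathway are not reported here.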

Additional observations from a re-analysis of the deposited data

Results flagged for a closer look

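In 144 sets of 5 readings (36 genes in 4 groups), 8 (5.56%) held a pup whose gap to its nearest neighbour was too large for the group's range by Dixon's criterion. Chance flags about 1 in 20 groups, so the number is near that share, but 6 of the 8 were in pup 3 of untreated jj, the pup with the highest Ttr. Readings of 1 library are not independent of each other.

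In that pup Idi1 read 73.660 CPM, below the 123.7 to 141.3 CPM of the other 4, Ggps1 read 23.991 CPM against 33.3 to 36.7, and Sc5d read 130.456 CPM against 166.0 to 171.0. High in it were 3 genes: Srebf2 at 267.441 CPM against 230.1 to 240.3, Nr1h2 at 41.781 CPM against 33.0 to 35.5, and Npc2 at 64.086 CPM against 45.3 to 49.8. Mvd read 47.921 CPM in pup 3 of treated jj, below the 56.5 to 58.9 CPM of the others. Cyp46a1 read 80.637 CPM in pup 2 of untreated Nj, above the 62.3 to 67.2 CPM of the others, and this reading was the overlap between untreated and treated Nj pups.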

How the results depend on the processing

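With light in Nj pups, 2 members were called, and 0 without the Ttr-rich libraries. Leaving out each library in turn gave 0 to 3 calls: 0 without untreated Nj pup 4 or 5, 3 without untreated Nj pup 2 (with Cyp46a1) or treated Nj pup 1 (with Mvd), and Srebf2 alone without untreated Nj pup 1 or treated Nj pup 2 or 5. The same omissions moved the genes called overall from 611 to 152 and 159 (untreated Nj pups 4 and 5), to 272 and 253 (treated Nj pups 2 and 5) and to 112 (Ttr-rich libraries), and DESeq2 called 1009. With light in jj pups DESeq2 called 1 member in place of 0, with 271 genes in place of 25. Averaged over genotypes it called 5 members in place of 3, and without the Ttr-rich libraries 0 were called, with 424 genes in place of 1541. Leaving out those libraries also leaves as few as 2 pups in a group. No fold change of a called member reversed under any alternative run. DESeq2's size factors, no count filter and the compared groups alone kept the number of called members within 1.5 times in each comparison they were run for. The remaining contrasts gave 0 calls throughout, which in groups of 5 does not show equal levels. No paired analysis was possible because the numbers in the labels name pups and link none across groups.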
